A study of Oryctolagus cuniculus with 18 samples.

Results

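The RPE-choroid of poly(CEP)-filled rabbit eyes was compared between 2 months and 1 month after filling. The members were chosen by their labels: 3 samples at 2 months and 3 at 1 month, which are 6 of the 18 samples of the series. Every gene with an Ensembl rabbit identifier was considered, 29587 in all. All eyes came from male New Zealand White rabbits aged 4 to 6 months. Operated eyes had a core vitrectomy, after which the cavity was filled with poly(CEP), a thermogelling multiblock polymer of polyethylene glycol, polypropylene glycol and polycaprolactone that is used as a vitreous substitute. None of these eyes had scarring induced. In the study's list of animals, the eyes kept for 2 months without it are the fellow eyes of eyes operated for the scarring model and the 1-month eyes are not. The sequenced eyes are not named in it, but if they are among those listed this difference cannot be told apart from time. Non-operated eyes, 3 samples per tissue, were used for the classes of genes and for the estimate of the spread, and the retina of the same 3 groups, 9 samples, for comparison. Eyes with vitrectomy alone were not analysed here, so surgery and polymer cannot be told apart at either time. The methods of the study call the 3 samples of a condition biological replicates.

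The retinal pigment epithelium (RPE) is a single pigmented layer behind the photoreceptors. It recycles visual pigment, engulfs shed photoreceptor tips and forms the outer blood-retina barrier. The choroid behind it is a vascular layer of endothelial cells, fibroblasts, melanocytes and immune cells that feeds the outer retina. The layers are in close contact, and here the retina was pulled out of an opened eye cup before the RPE-choroid was peeled from the sclera. The labels name the tissue as retinal pigment epithelium and the methods of the study as RPE-choroid. The processed files give identifiers without names and none could be matched to a symbol, so the tissue could not be checked against RPE, choroid or photoreceptor markers, and no pathway or cell type is named. In bulk tissue, fewer cells of a type and less RNA per cell cannot be told apart.

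Genes were placed in 3 classes by their level in non-operated eyes alone. A gene was called shared where its mean log2 CPM (CPM, the count scaled to a common library size) in retina was within 2-fold of that in RPE-choroid. It was called retina-preferring or RPE-choroid-preferring where the difference was larger. Of the 16322 genes that passed the filter on low counts, 10127 were shared (62.0%), 3571 were RPE-choroid-preferring (21.9%) and 2624 were retina-preferring (16.1%). The shared class held 22570 genes of the whole file, most of which had too few counts to be tested. A narrower set, of 7897 tested genes, was within 2-fold of the retinal mean in each of the 3 non-operated RPE-choroid samples taken singly. The narrowest set, chosen after the data were seen, held the 3622 of these whose mean differed by at most 0.25 log2 units (1.19-fold) between the tissues, and is called near-equal. The 1-month and 2-month samples had no part in these classes.

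The 2 time points differed most in genes that prefer one tissue. Each sample was scored by 200 retina-high genes, those that most exceeded RPE-choroid in the retina of non-operated eyes. Their mean log2 CPM at 1 month was 6.33, 6.59 and 5.55 in replicates 1, 2 and 3. At 2 months it was 4.47, 4.55 and -0.86. All 3 samples at 1 month lay above all 3 at 2 months, and replicate 3 at 2 months lay far below the other two. Taken back from the log2 scale and set against the mean of non-operated retina, these levels were 46.4%, 55.5% and 27.1% at 1 month and 12.8%, 13.6% and 0.318% at 2 months. The non-operated RPE-choroid ranged widely, with 5.19, -0.44 and 6.56 log2 CPM, or 21.1%, 0.426% and 54.5%. Only the highest 1-month sample and the lowest 2-month sample lay outside that range. In retina the same genes lay between 7.40 and 7.49 log2 CPM in non-operated eyes, 6.55 and 7.05 at 1 month and 6.77 and 7.11 at 2 months. Every operated retina lay below every non-operated retina, so this level also differed with the operation inside retina.

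The 200 RPE-choroid-high genes, chosen the same way, moved in the opposite direction. Their mean log2 CPM was 5.88, 5.39 and 6.57 at 1 month and 7.32, 7.35 and 7.91 at 2 months, again without overlap. In non-operated RPE-choroid it was 7.53, 7.98 and 6.44, so the 2-month samples lay within the range of the non-operated samples. Retina samples lay between -0.52 and 1.15. Over whole classes, retina-preferring genes took 19.1%, 21.4% and 13.5% of the gene counts at 1 month and 7.495%, 7.34% and 2.93% at 2 months. RPE-choroid-preferring genes took 16.3%, 13.6% and 23.0% at 1 month and 31.7%, 32.6% and 38.7% at 2 months. Shared genes took 64.5%, 65.0% and 63.5% at 1 month against 60.8%, 60.1% and 58.3% at 2 months, the smallest difference of the 3 classes. Which part of any gene's difference came from retina left on the RPE-choroid was not tested.

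**Figure D1:**
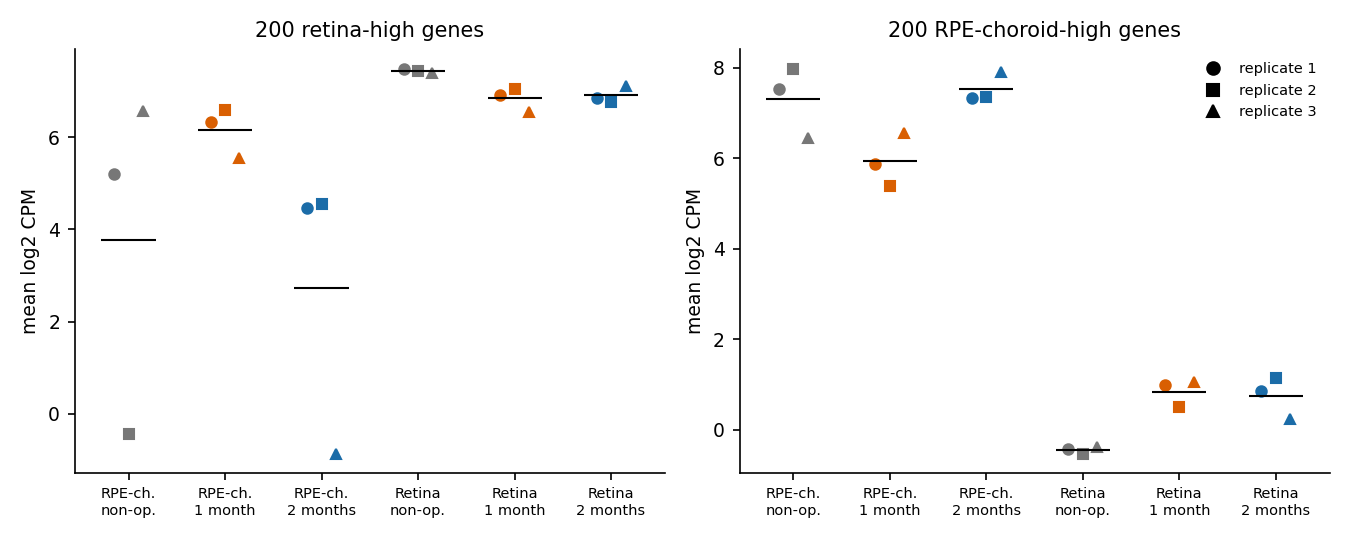
Mean log2 CPM of the 200 retina-high genes (left) and the 200 RPE-choroid-high genes (right) in each of the 18 samples, by tissue and group, with symbols for replicate numbers and a line at the group mean. In RPE-choroid the retina-high genes lay between 5.55 and 6.59 at 1 month and at 4.55 or below at 2 months, and the non-operated samples spread from -0.44 to 6.56.

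The question put to each gene was whether its level differed between 2 months and 1 month by more than the samples of a group differed. With edgeR's quasi-likelihood test on the 9 RPE-choroid samples, 0 of 16322 genes passed a Benjamini-Hochberg adjusted p-value of 0.05 in either direction. The smallest edgeR adjusted p-value was 0.0503, just past the threshold, and 430 genes held it, 351 higher and 79 lower at 2 months. At an unadjusted p-value under 0.05, 3079 genes were higher at 2 months (18.9%) and 1885 were lower (11.5%). DESeq2 on the same samples passed 2078 genes as higher (12.7%) and 1315 as lower (8.06%). The count depended on the samples in the fit. Fitted with only the 6 samples compared, edgeR passed 1963 genes as higher (12.3%) and 990 as lower (6.19%), and fitted with all 18 samples 2231 (13.2%) and 1561 (9.27%). With the replicate number as a block, the fit of 6 samples passed 2994 as higher (18.7%) and 1721 as lower (10.8%), that of 18 samples 1453 (8.63%) and 728 (4.32%), and that of 9 samples still 0. Without the block and without non-operated replicate 2, edgeR on the RPE-choroid samples passed 1379 of 16617 genes as higher and 800 as lower. With non-operated replicate 3 left out instead, it passed 1911 and 812 of 16629 genes. With 2-month replicate 3 left out instead, it passed 12 and 15 of 16605. Non-operated replicates 2 and 3 are the samples with the lowest and highest retina-high level of their group.

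RPE-choroid-preferring genes were mostly higher at 2 months. Their median log2 fold change was 1.11, and the middle 50% lay between 0.68 and 1.59, against a median of 0.011 over all genes tested. The difference was positive in 95.5% of them. More than 2-fold higher were 2017 of the 3571 and more than 2-fold lower were 26, where 13.9% and 13.7% of all genes tested were so. The 3 samples at 2 months lay above the 3 at 1 month in 2355 genes (65.9%), against 23.5% of all genes tested. At an unadjusted edgeR p-value under 0.05, 2153 were higher (60.3%, against 18.9% of all genes tested) and 13 lower (0.364%, against 11.5%).

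Retina-preferring genes were mostly lower at 2 months, their log2 fold changes having a median of -1.44 and a middle 50% between -2.04 and -0.88. More than 2-fold lower were 1818 of the 2624 and more than 2-fold higher were 4. The 2-month samples lay below the 1-month samples without overlap in 1862 (71.0%), where 23.3% of all genes tested did. At an unadjusted p-value under 0.05, 770 were lower (29.3%, against 11.5% of all genes tested) and 1 was higher (0.0381%, against 18.9%). With the replicate number as a block the 770 became 422.

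Shared genes differed by much less. Their median log2 fold change was -0.028 and the middle 50% lay between -0.30 and 0.25. More than 2-fold higher were 254 of the 10127 and more than 2-fold lower were 384, fewer than the 2017 and 1818 in the much smaller preferring classes. At an unadjusted edgeR p-value under 0.05, 925 shared genes were higher (9.13%, against 18.9% of all genes tested) and 1102 lower (10.9%, against 11.5%). Without overlap, 1484 were higher (14.7%) and 1923 lower (19.0%), both below the 23.5% and 23.3% of all genes tested. In the set shared in every non-operated sample, 97 genes exceeded 2-fold upwards and 148 downwards. In the near-equal set these counts were 41 and 43, and unadjusted p-values under 0.05 were held by 225 genes that were higher (6.21%) and 185 that were lower (5.11%).

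Among shared genes, differences past 2-fold were most frequent at low counts. Of the 1493 with a mean log2 CPM of at most 1, 26.1% differed by more than 2-fold, with a median absolute log2 difference of 0.60. Of the 3535 between 5 and 7 log2 CPM, 1.22% did, with a median of 0.23. Above 7 log2 CPM it was 1.82% of 1043, 7 higher and 12 lower.

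The spread between samples was set beside the difference between the times pair by pair, as the median absolute log2 difference over genes. For shared genes it was between 0.14 and 0.29 for pairs of 1-month samples and between 0.15 and 0.29 for pairs of 2-month samples. The 9 pairs of a 1-month and a 2-month sample gave 0.29 to 0.40, so the closest such pair differed about as much as the most distant pairs within a group. For RPE-choroid-preferring genes the pairs within a group reached 0.65 at 1 month and 0.48 at 2 months, and every pair across the times was larger, from 0.80 to 1.53. For retina-preferring genes the pairs across the times gave 0.78 to 2.75. Pairs of 2-month samples reached 1.496 there, through replicate 3, and overlapped with that range. Replicates 1 and 2 were the closest pair at both times, and their counts still differed by more than sampling noise, the chi-square divided by its degrees of freedom being 25.1 at 1 month and 20.7 at 2 months.

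**Figure D2:**
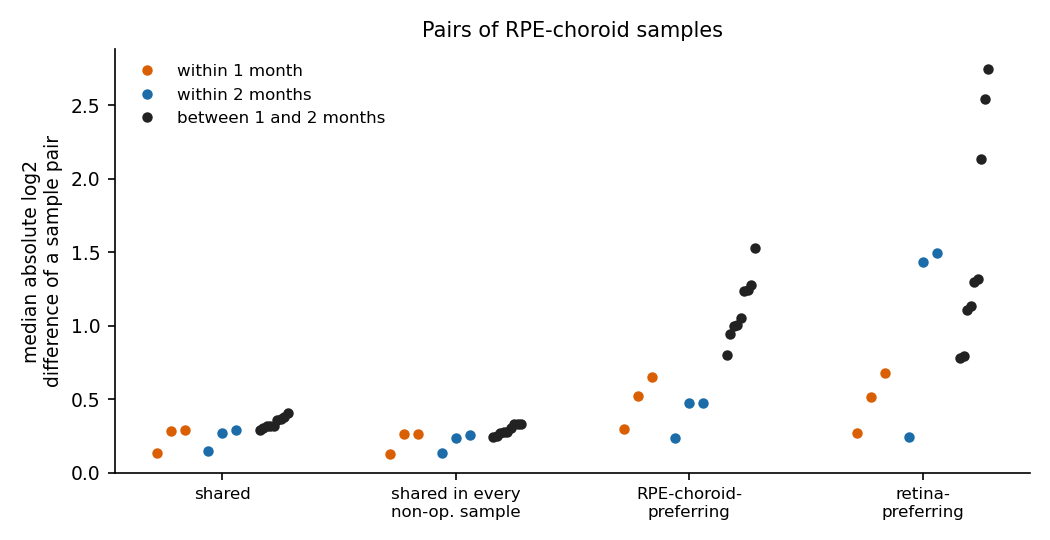
Median absolute log2 difference over genes (vertical axis, log2 units) for each pair of RPE-choroid samples, by class of gene, with pairs within 1 month, within 2 months and between the times in separate columns. Pairs between the times lay well above pairs within a time in RPE-choroid-preferring genes (0.80 to 1.53), and close to them in shared genes (0.29 to 0.40).

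The difference between the times ran with tissue preference also inside the shared class. Among all genes tested, the median log2 fold change was 1.61 in the 291 genes that were more than 6 log2 units lower in retina. It was 0.23 in the 4214 genes up to 1 unit lower in retina and -0.20 in the 5913 up to 1 unit higher. It reached -2.22 in the 378 genes 3 to 4 units higher in retina. Within the shared class alone it went from 0.48 in the 591 genes that were 0.75 to 1 unit lower in retina to -0.51 in the 744 that were 0.75 to 1 unit higher. The middle bins, up to 0.25 units on either side, had medians of 0.10 (1636 genes) and -0.047 (2117 genes). Pearson's correlation across genes between preference and log2 fold change was -0.75 for the 16322 genes tested, -0.47 for the shared genes and -0.20 for the near-equal genes. Genes are not independent replicates, all points share the same 6 libraries, and no p-value is given. Preference itself rested on the mean of 3 non-operated RPE-choroid samples, whose retina-high level spanned 0.426% to 54.5% of that of retina. The part of that spread in the classes and in this order was not tested.

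Retina did not show the same order. Its own median log2 fold change between the times rose along the bins of the shared class, from -0.043 to 0.045. That is a much smaller trend in the opposite direction. With the retina-high level of each sample as a covariate in the RPE-choroid fit, the medians of those bins ran from 0.24 to -0.22. The median of RPE-choroid-preferring genes was then 0.72 and that of retina-preferring genes -0.34, and 0 genes passed the adjusted threshold in edgeR, while unadjusted p-values under 0.05 were found for 2116 genes that were higher (13.0%) and 1150 that were lower (7.05%). In the 378 genes 3 to 4 units higher in retina the median went from -2.22 to -0.089, and in the 43 genes 4 to 5 units higher from -2.29 to 0.53. The covariate is the mean of the 200 retina-high genes, which were all among the genes tested. A smaller difference in genes of their kind was thus built into this fit. The covariate itself differed between the times without overlap, so that it and the time since filling are partly confounded.

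**Figure D3:**
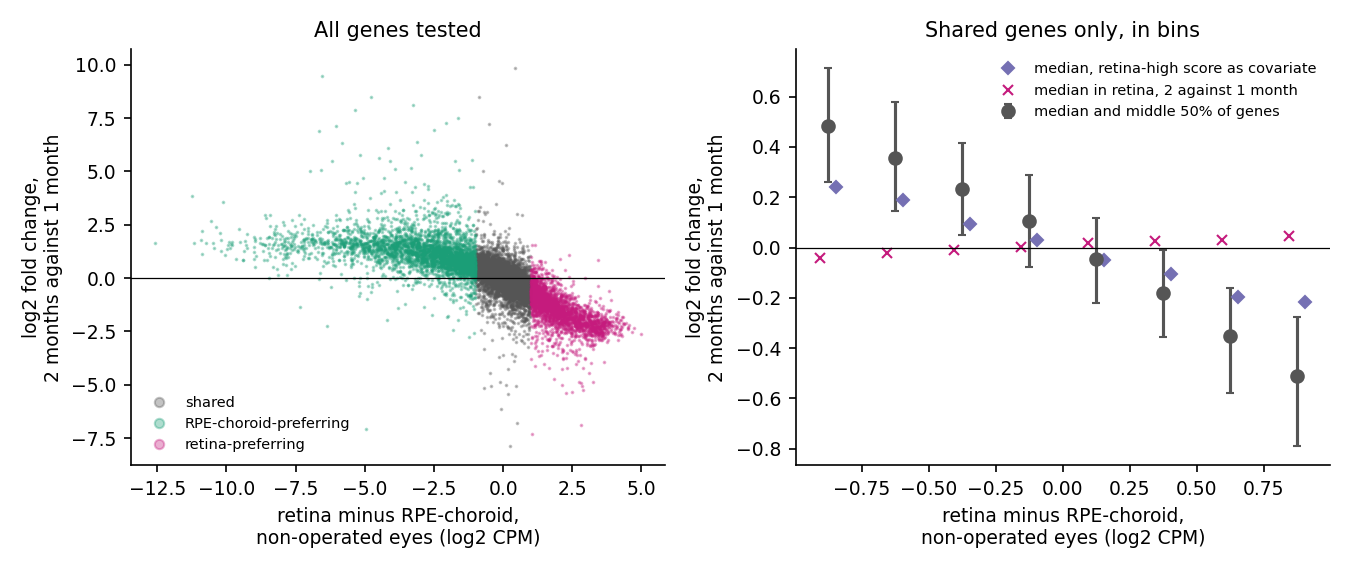
Left, log2 fold change in RPE-choroid at 2 months against 1 month (vertical axis) against the difference between retina and RPE-choroid in non-operated eyes (horizontal axis, log2 CPM) for the 16322 genes tested, coloured by class. Right, the shared class in bins of 0.25, with the median and the middle 50% of genes, the median with the retina-high level as a covariate, and the median of the same genes in retina. The median in RPE-choroid fell along the bins from 0.48 to -0.51 and that in retina rose slightly, from -0.043 to 0.045.

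The mean of the non-operated RPE-choroid lay between the means of the 2 times in 8464 of the 16322 genes tested (51.9%), and in 4214 of the 10127 shared genes (41.6%). Over all genes tested it lay below both times in 3654 and above both in 4204. For RPE-choroid-preferring genes that were 3 to 4 log2 units lower in retina, the median log2 difference from non-operated RPE-choroid was -0.95 at 1 month and 0.44 at 2 months. For retina-preferring genes 2 to 3 units higher in retina, it was 1.04 at 1 month and -0.81 at 2 months. Both comparisons share the non-operated samples, whose own retina-high level spanned 0.426% to 54.5% of that of retina.

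Genes that passed the adjusted threshold under DESeq2, under edgeR with 6 samples and under edgeR with 18 samples, in the same direction, were counted as a group. There were 1542 higher (9.45%) and 739 lower (4.53%) at 2 months. Of the higher, 1256 were RPE-choroid-preferring, 286 were shared and 0 were retina-preferring. Of the lower, 376 were retina-preferring, 362 were shared and 1 was RPE-choroid-preferring. As shares of their class, 35.2% of RPE-choroid-preferring genes rose in all 3 settings and 14.3% of retina-preferring genes fell, against 2.82% and 3.57% of shared genes. The set shared in every non-operated sample held 170 that rose and 211 that fell (2.15% and 2.67%). The near-equal set held 40 and 32 (1.10% and 0.883%). All of these shares in the 3 shared sets lay below the 9.45% and 4.53% of all genes tested. None of the 3 settings used the replicate number. With it as a block in each, 1241 genes passed all 3 as higher (7.60%) and 519 as lower (3.18%), of which 1065 and 441 were among those counted above. RPE-choroid-preferring genes then held 936 that rose and 0 that fell, and retina-preferring genes 0 and 193. Shared genes held 305 and 326 (3.01% and 3.22%), and near-equal genes 63 and 37 (1.74% and 1.02%). With the block, the share of shared genes that fell was thus no longer below the 3.18% of all genes tested. The edgeR fit of 9 samples with the block passed 0, with a smallest adjusted p-value of 0.0871.

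**Figure D4:**
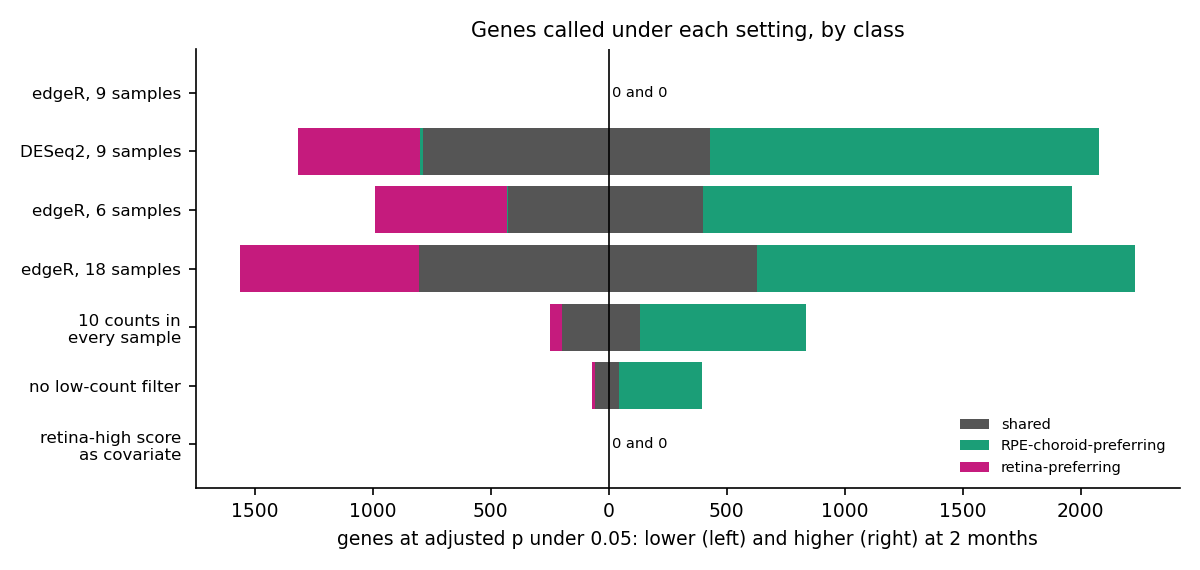
Number of genes (horizontal axis) lower at 2 months (left of 0) and higher at 2 months (right of 0) at an adjusted p-value under 0.05 in each of 7 settings, stacked by class. The edgeR fit of 9 samples and the fit with the retina-high level as a covariate passed 0 in both directions, and DESeq2 passed 2078 higher and 1315 lower.

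The shared genes that passed in all 3 settings were modest in size. The median log2 fold change of the 286 that rose was 0.78, with 76 past 2-fold, and that of the 362 that fell was -0.75, with 89 past 2-fold. Those that rose lay on the RPE-choroid side of equal expression in 92.3% of cases and those that fell in 5.25%, where 41.6% of all shared genes tested did. The near-equal genes had smaller offsets, with 67.5% of the 40 that rose and 25% of the 32 that fell on the RPE-choroid side. Their median log2 fold changes were 0.68 and -0.62. With the retina-high level as a covariate these medians were 0.66 and -0.60, and all 40 and all 32 kept their sign. The genes were chosen for their difference in the same libraries, so the kept sign is no separate test. Whether their difference followed retina left on the RPE-choroid was not tested.

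In retina, the same genes were examined between the same times. Its libraries are separate from those of RPE-choroid, but they entered the fit of 18 samples, which was among the 3 settings. The choice of genes was thus not fully independent of retina. Of the shared genes that rose in all 3 settings in RPE-choroid, 181 of the 283 tested in retina were higher there at 2 months (64.0%), and of those that fell 113 of 362 were (31.2%), where 53.5% of all shared genes tested in retina were. For the near-equal genes the counts were 30 of 40 (75%) and 6 of 32 (18.8%). The differences in retina were small, with medians of 0.094 and -0.13 for the near-equal genes on the log2 scale. Retina itself had 1 gene higher (0.00630%) and 0 lower among 15878 tested at an adjusted edgeR p-value under 0.05, with 296 and 345 below 0.05 before adjustment. Whether same-numbered retina and RPE-choroid samples came from the same eye is not stated.

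Whether the change over time differed by tissue was tested with an edgeR interaction term (18 samples, 16846 genes). The change from 1 to 2 months was more positive in RPE-choroid in 23 genes (0.137%), of which 17 were RPE-choroid-preferring and 6 shared. It was more negative in 1 gene (0.00594%), which was retina-preferring. With same-numbered retina and RPE-choroid samples of a group as blocks, 13 genes were more positive, 12 of them RPE-choroid-preferring and 1 shared. The 1 then more negative was a shared gene, and the retina-preferring gene no longer passed. The count of 24 moved widely with the libraries fitted. With only the 12 samples of the 2 times it was 1169, of which 841 were more positive and 328 more negative. It was 27 without 1-month RPE-choroid replicate 3 and 16 without 2-month retina replicate 3. It was 0 without 1-month RPE-choroid replicate 1 or 2, without 2-month RPE-choroid replicate 1 or 2, or without 2-month retina replicate 1. It was 1 without 2-month RPE-choroid replicate 3, without 1-month retina replicate 1 or 3 or without 2-month retina replicate 2, and 8 without 1-month retina replicate 2.

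One identifier of each kind was taken as an example, by the smallest p-value where the mean level over the 6 samples reached 3 log2 CPM. The shared gene higher at 2 months was ENSOCUG00000013290. Its CPM in RPE-choroid was 31.5, 28.3 and 26.9 at 1 month and 71.0, 85.4 and 82.8 at 2 months. Non-operated RPE-choroid had 37.2, 32.2 and 38.4, so that the 2-month samples stood above every other RPE-choroid sample. The means were 28.9 ± 2.36 at 1 month and 79.7 ± 7.68 at 2 months (SD, n = 3), a log2 fold change of 1.47 (SE 0.14, edgeR adjusted p = 0.0503). All 9 retina samples lay lower than the 2-month RPE-choroid, between 10.8 and 33.1 CPM. This gene was in the near-equal group, with a tissue difference of -0.15 log2 units in non-operated eyes, and its log2 fold change with the retina-high level as a covariate was 1.504.

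The RPE-choroid-preferring gene higher at 2 months was ENSOCUG00000027827. Its CPM was 20.9, 15.5 and 21.3 at 1 month and 61.2, 62.0 and 65.6 at 2 months, with 34.4, 41.4 and 25.4 in non-operated RPE-choroid. The 3 groups of RPE-choroid did not overlap, with the non-operated samples in the middle. The means were 19.3 ± 3.24 and 63.0 ± 2.36 (SD, n = 3), a log2 fold change of 1.71 (SE 0.21, edgeR adjusted p = 0.0503). Retina held between 0.529 and 3.42 CPM. Its tissue difference was -5.43 log2 units and its log2 fold change with the covariate 1.49.

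The shared gene lower at 2 months was ENSOCUG00000017543. Its CPM was 52.4, 59.0 and 52.2 at 1 month and 25.8, 26.6 and 19.7 at 2 months. Non-operated RPE-choroid had 20.9, 17.6 and 20.6, within or below the range at 2 months. The means were 54.5 ± 3.85 and 24.0 ± 3.77 (SD, n = 3), a log2 fold change of -1.19 (SE 0.15, edgeR adjusted p = 0.0503). Retina had 24.96 to 27.2 CPM in non-operated eyes, 57.9 to 75.2 at 1 month and 52.3 to 72.2 at 2 months. The retinal level at 2 months thus overlapped with that at 1 month, while the RPE-choroid level did not. With the covariate the log2 fold change was -1.03.

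The retina-preferring gene lower at 2 months was ENSOCUG00000026988. Its CPM was 162.1, 151.6 and 288.4 at 1 month and 32.2, 34.8 and 24.4 at 2 months, with 41.6, 33.0 and 79.9 in non-operated RPE-choroid. The means were 200.7 ± 76.1 and 30.5 ± 5.41 (SD, n = 3), a log2 fold change of -2.72 (SE 0.39, edgeR adjusted p = 0.0503). Replicate 3 at 1 month, the 1-month sample with the lowest retina-high level, had the highest value and stood above all 9 retina samples, the highest of which was 250.1. In retina the 2-month samples were uneven, with 56.0, 71.1 and 222.7 CPM. None of the 4 identifiers passed the test of a difference between tissues, with edgeR adjusted p-values of 0.103, 0.0797, 0.0608 and 0.146 in the order given.

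**Figure D5:**
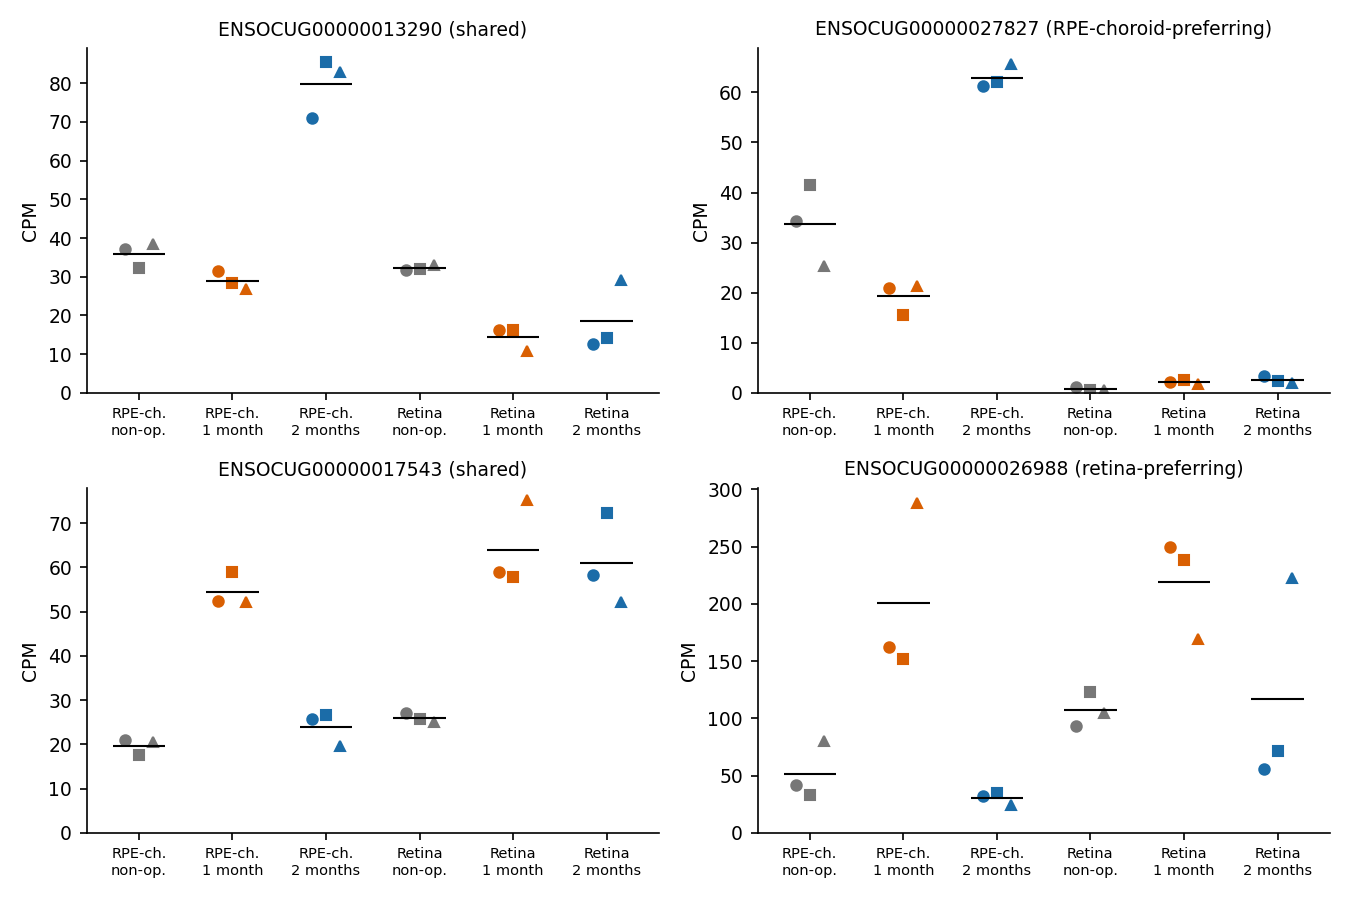
CPM of the 4 identifiers in each sample (vertical axes, linear from 0), by tissue and group, with symbols for replicate numbers 1 (circle), 2 (square) and 3 (triangle) and a line at the group mean. In RPE-choroid, 1-month and 2-month samples did not overlap in any of the 4, and ENSOCUG00000013290 at 2 months (71.0 to 85.4 CPM) lay above every other sample.

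The libraries differed in other ways between the times. Counts on genes were between 25958919 and 31732297 in the 6 samples, and the variance expected from counting alone was below the estimated dispersion between samples in 99.7% of the genes tested. Reads aligned to several places were 8.49%, 8.47% and 9.62% of all reads at 1 month and 13.7%, 13.2% and 9.96% at 2 months, against 8.03% to 9.32% in non-operated RPE-choroid. The 2-month replicates 1 and 2 stood apart from the third in this share too. Without both of them replicate 3, the sample with the lowest retina-high level, was the only 2-month sample. The median log2 fold change was then 1.22 for RPE-choroid-preferring, -2.75 for retina-preferring and -0.075 for shared genes. The part of this share in the results was not tested.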

How the data were processed

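RNA from RPE-choroid and retina was sequenced in 3 samples per group and tissue (stranded poly(A) libraries, NovaSeq). The authors used Trim Galore for trimming, HISAT2 for alignment to the rabbit build OryCun2.0 and HTSeq for counting, and the deposited values are unnormalised counts per gene (29587 genes and 5 summary rows). Versions and the strand setting of the counting are not given in the sources used here, so overlapping and antisense genes are uncertain.

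The summary rows were left out of the tests. The 9 RPE-choroid samples were fitted with edgeR 4.0.16 in R 4.3.3 (TMM, filterByExpr with minimum count 10 and minimum total 15, two-sided quasi-likelihood test with robust dispersions, p-values adjusted by Benjamini-Hochberg, threshold 0.05). The standard error is the log2 fold change divided by the root of the F statistic. Classes used log2 CPM with a prior count of 2 and TMM over 18 samples. Retina-high and RPE-choroid-high genes were required to reach a mean of 5 log2 CPM in the high tissue. DESeq2 1.42.0 was an alternative, run on the same genes. Other alternatives were RLE and upper-quartile normalisation, other filters, the samples in the fit, the replicate block, a non-robust fit, the retina-high level as a covariate, other class limits and each replicate left out.

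The 4 identifiers are, in each direction, the shared gene and the gene preferring RPE-choroid (higher) or retina (lower) with the smallest edgeR p-value and a mean of 3 log2 CPM or more. The comparison, classes and lists were chosen with earlier results of these data known. Chosen with the data in view were the near-equal set, the fit without both 2-month replicates 1 and 2, the DESeq2, 6-sample and 18-sample counts for genes shared in every non-operated sample, the group of genes passing those 3 settings, and the replicate block in each of them.

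The replicate numbers come from the labels, which do not say what they share. In the study's list of animals, the unscarred poly(CEP)-filled eyes kept for 1 month and for 2 months come from different animals. If the sequenced eyes are among those listed, a number cannot mark an animal shared across the times. The deviations of same-numbered 1-month and 2-month samples correlated at 0.18, 0.37 and 0.40, each over 0.1, so blocked counts are given beside the others where they moved by over 1.5 times. The 1-month replicate 1 correlated equally with 2-month replicate 2 (0.18), and 1-month replicate 2 about equally with 2-month replicate 1 (0.37). The correlations thus did not tell replicates 1 and 2 apart. Replicate 3 had the lowest retina-high level at both times (5.55 and -0.86 log2 CPM). Whether the correlations followed that level was not tested.

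The table of gene names given for this work (mOryCun1.1, 38822 rows) matched 0 identifiers. Planned gene lists, marker checks, sequences and checks of GC content or length were therefore not made.

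On simulated counts with the spread of RPE-choroid, 200 genes were changed. There edgeR with 9 samples found 8% of the changes of 1 log2 unit and 59% of the changes of 2 (16058 genes), with 2 false among 69 calls. With 6 samples (15835 genes) it recovered 0% and 50%, with 4 false among 54. DESeq2 recovered 30% and 84%, with 58 false among 172. Each simulated gene varied independently of the others, whereas tissue-preferring genes moved together between the real samples. These rates may therefore not carry over to the counts of genes above.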

Additional observations from a re-analysis of the deposited data

Results flagged for a closer look

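The change from 1 month to 2 months differed between RPE-choroid and retina in 24 genes by the interaction test of edgeR on 18 samples. It was more positive in RPE-choroid in 23 and more negative in 1.

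Reads that aligned to several places took a share above the range of the 3 non-operated RPE-choroid samples (8.03% to 9.32%) in 1-month replicate 3 (9.62%) and in 2-month replicates 1 (13.67%), 2 (13.22%) and 3 (9.96%). These reads entered no gene count. In retina at 2 months the share was 11.7%, 11.1% and 8.44% in replicates 1, 2 and 3, so replicate 3 was the lowest of the 2-month samples in both tissues.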

How the results depend on the processing

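Of the alternatives, 11 of 23 passed genes where the edgeR fit of 9 samples passed 0. Genes higher and lower at 2 months were 2078 and 1315 with DESeq2, 1963 and 990 with only the 6 samples compared, 2231 and 1561 with all 18 samples, 835 and 249 where every sample had to hold 10 counts, and 396 and 72 without a filter on low counts. Leaving out one replicate gave 0 to 1911 higher and 0 to 812 lower. Among shared genes the counts were 430 and 789 with DESeq2, 398 and 425 with 6 samples, 627 and 802 with 18 samples, 131 and 196 where every sample had to hold 10 counts, and 45 and 56 without a filter, and leaving out one replicate gave 0 to 397 higher and 0 to 479 lower. With shared defined in every non-operated sample they were 287 and 572 (DESeq2), 206 and 230 (6 samples) and 418 and 538 (18 samples). With the block added, the counts were 1859 and 911 with DESeq2 (shared 407 and 606), 2994 and 1721 with 6 samples (shared 813 and 702) and 1453 and 728 with 18 samples (shared 443 and 472). The cause was not tested.

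In the fit of 9 samples with the replicate block, RLE, upper-quartile normalisation, a non-robust fit or the retina-high level as a covariate, 0 genes passed. The smallest adjusted p-value under the replicate block was 0.0871, and 2700 higher and 1369 lower genes were under 0.05 before adjustment. In that fit the block moved the unadjusted counts of the shared, near-equal and RPE-choroid-preferring genes by less than 1.5 times, and that of retina-preferring genes that were lower from 770 to 422.

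The median log2 fold change of shared genes, -0.028, was -0.065 with DESeq2 (-0.064 with the block), -0.064 with RLE and -0.076 with upper-quartile normalisation. It was -0.061 where every sample had to hold 10 counts and -0.075 with replicate 3 as the only 2-month sample. Leaving out one replicate gave -0.062 to -0.021. The median of RPE-choroid-preferring genes was 0.72 with the covariate and 0.90 with classes set at 1.5-fold, and between 0.94 and 1.31 without one replicate. That of retina-preferring genes was -0.34 with the covariate and -2.75 with replicate 3 as the only 2-month sample. With any single replicate left out it was between -1.65 and -1.15.

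The 24 genes whose change differed between tissues became 14 with the replicate block, 14 with RLE and 1169 with only the 12 samples of the 2 times, and 0 to 27 without one replicate. The 4 identifiers kept their direction in 24 settings, the main fit among them. They passed the threshold in 10 or 11 of these, with adjusted p-values up to 0.207. The 4 were chosen by their p-value in the same libraries, so the kept direction is no separate test.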
